A study of Mus musculus with 8 samples.

Results

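Mir465 is a small family of near-identical microRNA genes that sit side by side on mouse chromosome X. Its members here were the rows named Mir465, Mir465b-1, Mir465b-2 and Mir465c-2, taken by name but with earlier results of these data known. That makes 4 of the 10822 features listed in any of the 5 tables. All 4 were listed in the supernatant, pellet, MVH IP and round spermatid tables, and 1 of the 4, Mir465, in the ACR IP table. The study followed small RNA of 19 to 33 nt through the purification of chromatoid bodies from adult testis of C57BL/6 mice aged at least 6 weeks. Its groups were the supernatant and the first and second pellets of sonicated, formaldehyde cross-linked testis cells, precipitates made with an antibody to MVH or, as control, to the acrosomal protease ACR, sorted round spermatids labelled hetMIWI, and the starting lysate. The 8 samples gave 1 library to each group except MVH IP, which had 2. The labels say nothing more of the spermatids' genotype, and the pellet column is not tied to 1 of the 2 pellet samples. The MVH IP and pellet values are therefore the authors' values for their columns.

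The miR-465 genes belong to a fast-evolving cluster of chromosome X microRNAs that is best known from testis and male germ cells. A microRNA gene is transcribed as a hairpin, from which a short strand of the 5′ arm (5p) or the 3′ arm (3p) is cut and loaded into an Argonaute protein. The loaded strand finds messenger RNAs mainly through its seed, bases 2 to 8. The chromatoid body is a cytoplasmic granule of round spermatids, the haploid cells after meiosis, that holds MVH (the RNA helicase DDX4), PIWI proteins and components of the microRNA pathway.

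The sequences set what a short read can tell apart. RefSeq (GRCm38.p6) listed hairpins for 4 of the 4 members, all on the minus strand of chromosome X. The hairpins of Mir465b-1 and Mir465b-2 were the same, so 3 distinct hairpins are shown, with the mature 5p and 3p stretches in capitals:
Mir465: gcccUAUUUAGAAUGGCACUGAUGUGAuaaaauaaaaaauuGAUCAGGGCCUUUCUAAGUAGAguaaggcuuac
Mir465b-1 and Mir465b-2: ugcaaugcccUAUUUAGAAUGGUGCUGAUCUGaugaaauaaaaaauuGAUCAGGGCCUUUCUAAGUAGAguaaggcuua
Mir465c-2: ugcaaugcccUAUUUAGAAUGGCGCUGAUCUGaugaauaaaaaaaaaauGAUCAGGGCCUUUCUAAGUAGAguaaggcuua

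The 5p strands are where the copies differ, and all 3 carry the same seed, AUUUAGA, shown in capitals:
mmu-miR-465a-5p: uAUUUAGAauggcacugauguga
mmu-miR-465b-5p: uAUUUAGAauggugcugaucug
mmu-miR-465c-5p: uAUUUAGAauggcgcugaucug

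Counted from 1 at the 5′ end, the b and c 5p strands differed by U13C. The a and c strands differed by A14G and G20C, and the a and b strands by C13U, A14G and G20C. No difference fell within the seed. The 3p strand was 1 sequence for the a, b and c names, again with its seed in capitals:
mmu-miR-465a-3p, mmu-miR-465b-3p and mmu-miR-465c-3p: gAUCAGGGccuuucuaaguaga

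A read of 19 bases, the shortest size selected, could be given to 1 copy sequence from the 5p strand but not from the 3p strand. None of the 5 possible 19-base windows of the Mir465 5p strand, and none of the 4 of the b or c 5p strand, occurred in a copy of another sequence. All 4 windows of the 3p strand occurred in every copy. Over whole hairpins, 26 of 56 windows of Mir465, 30 of 61 of Mir465b-1 and 19 of 63 of Mir465c-2 were shared with a copy of another sequence. RefSeq also lists a Mir465c-1 hairpin of 81 bases, identical to that of Mir465c-2, and a Mir465d hairpin. Neither name has a row in the tables. The Mir465d hairpin held 9 windows of Mir465, 14 of Mir465b-1, 5 of which no other copy held, and 0 of Mir465c-2. It held no window of their mature strands. Outside the Mir465 names, none of the windows was found in the 999 other RefSeq microRNA hairpins. No window separates Mir465b-1 from Mir465b-2, or Mir465c-1 from Mir465c-2. How the authors assigned reads with several matches was not given in the sources used here.

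In the files' mm9 coordinates the family spans 13171 bases of chromosome X, chrX:64079130-64092300. Mir465b-1 lies at chrX:64082377-64082455, Mir465c-2 at chrX:64085692-64085772, Mir465b-2 at chrX:64088939-64089017 and Mir465 at chrX:64092227-64092300. The MVH IP table listed Mir465c-2 at 2 places, the second at chrX:64079130-64079210, so 5 loci were covered in all. Their starts were 3247, 3315, 3247 and 3288 bases apart, with c and b copies alternating. The c-to-c and b-to-b distances were both 6562 bases. In RefSeq's order of hairpins, Mir465c-1 is the one next to Mir465b-1 on the lower side, as the second listed place of Mir465c-2 is here. The next listed microRNA gene of the cluster on the lower side, Mir470, ended 11929 bases before the first copy. On the upper side, Mir201 began 1148970 bases after Mir465.

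The tables give FPKM, in which fragments are divided by the length of the feature and by the size of the library. They hold no read totals, so the depth of each library is unknown. A value set beside another from a separately normalized table is given here as a percentage of the summed FPKM of all microRNA genes in its own column. MicroRNA genes made up between 84.9% of the FPKM in ACR IP and 98.6% in the supernatant. Of the cell-type markers, the germ cell microRNAs Mir34b, Mir34c and Mir449a were all above 0 in every column and held 28.7% of the microRNA FPKM in the supernatant, 32.5% in the pellet, 19.9% in ACR IP, 29.5% in MVH IP, 5.83% in round spermatids and 24.7% in lysate. With 1 library or 1 column of values behind each group, none of the differences could be checked against replicates.

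Of the columns that list all 4 rows, round spermatids gave the family its largest share. Its 4 rows summed to 5.00% of the microRNA FPKM in round spermatids, 1.19% in the supernatant, 1.05% in the pellet and 0.658% in MVH IP, against 0.828% in lysate. The sum counts the value that the b rows share through both rows, and it may count reads that match several copies more than once. In ACR IP the 1 member listed, Mir465, stood at 0. In sum, the order ran round spermatids, supernatant, pellet, lysate and MVH IP, and without replicates neighbours in that order cannot be said to differ.

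**Figure D1:**
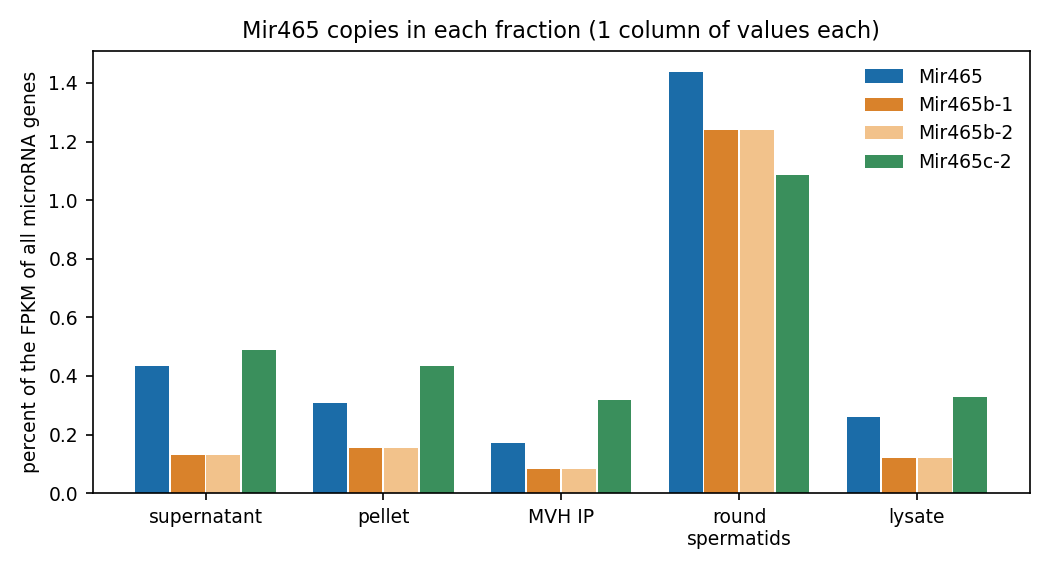
Each bar is 1 member's FPKM as a percentage of the FPKM of all microRNA genes in the same column (vertical axis), for the supernatant, pellet, MVH IP, round spermatids and lysate. The 4 bars of round spermatids lie between 1.09% and 1.44%, and no bar of another column exceeds 0.490%; there are no error bars because each column is 1 set of values.

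Each of the 4 rows was among the most abundant microRNA genes of round spermatids. Mir465 had 63616 FPKM there and ranked 13 of 259 microRNA genes, Mir465b-1 and Mir465b-2 each had 54850 FPKM and ranked 15, and Mir465c-2 had 48075 FPKM and ranked 20. In lysate, on the scale of the supernatant table, Mir465 had 52146 FPKM and ranked 72 of 386, each b row had 24254 FPKM and ranked 103, and Mir465c-2 had 66382 FPKM and ranked 60. These 2 tables were normalized separately, so the ranks and shares are set side by side and the FPKM are not.

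As shares of the microRNA FPKM, Mir465 stood at 1.44% in round spermatids against 0.258% in lysate, a 5.56-fold higher share. Each b row stood at 1.24% in round spermatids against 0.120% in lysate, a 10.3-fold higher share. Mir465c-2 stood at 1.09% in round spermatids against 0.329% in lysate, a 3.30-fold higher share. The part of shared reads in these differences between copies was not tested. All 4 rows were past 2-fold, where 27.1% of the 236 microRNA genes above 0 in both columns were. The median of those genes was -0.53 on the log2 scale of the share ratio, with quartiles of -1.91 and 1.27, and the 3 distinct member values were 2.48, 3.37 and 1.72. Of the 236 genes, 34 had a higher ratio than the summed family.

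The other chromosome X testis microRNAs lay on both sides of their lysate share. Of 15 such genes, 1 had a share at least 2-fold higher in round spermatids than in lysate. Another 9 had a share at least 2-fold lower, where 41.1% of the 236 microRNA genes did. Their median was -1.42 on the log2 scale, in a range of -3.35 to 1.66. None of the 15 had a higher ratio than any of the 4 Mir465 rows. The nearest of them by position, Mir470, stood at 1.29% in round spermatids against 0.978% in lysate. Mir871, the next, stood at 2.00% against 0.631%, the highest ratio of the 15, and Mir881 at 0.907% against 0.650%. On the far side, Mir201 stood at 0.0303% in round spermatids against 0.309% in lysate, and Mir547 at 0.0652% against 0.316%.

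**Figure D2:**
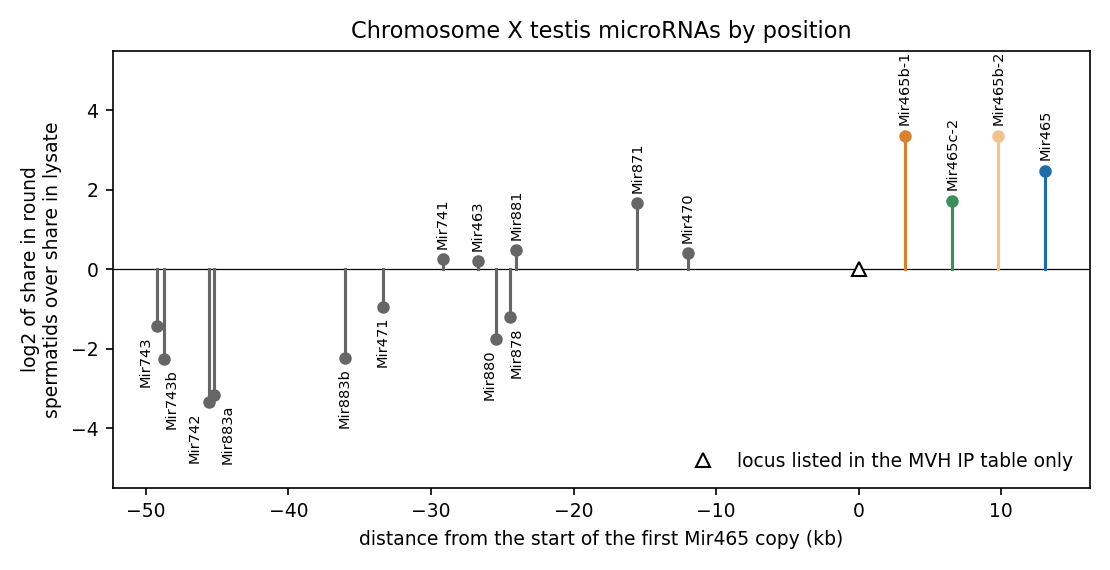
The log2 ratio of each gene's share of the microRNA FPKM in round spermatids over its share in lysate (vertical axis) is plotted against its distance in kb from the start of the first Mir465 locus (horizontal axis); Mir201 and Mir547, 1162141 bases and more away, are not drawn. The 4 Mir465 rows lie between 1.72 and 3.37 and the other genes shown between -3.35 and 1.66; the triangle marks the locus that has a value in the MVH IP table only.

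Other markers also differed in this comparison, and not all in the same direction. The germ cell list summed to 5.83% of the microRNA FPKM in round spermatids against 24.7% in lysate, with 3 of 3 genes listed and above 0 in both. Within it, Mir34c held 3.97% in round spermatids against 19.6% in lysate, and the leading microRNA gene of round spermatids was Mir184 at 18.7%. The blood list summed to 0.167% in round spermatids, with 5 of 6 genes listed and 1 of those at 0, against 2.33% in lysate, with 5 of 6 listed and none at 0. Mir202, of Sertoli and Leydig cells, stood at 0.184% in round spermatids against 1.10% in lysate. The vessel wall and smooth muscle list, 3 of 3 listed and above 0 in both, summed to 1.35% in round spermatids against 1.76% in lysate. The list of tissues outside the testis was higher in round spermatids, at 0.429% with 8 of 12 listed. It summed to 0.257% in lysate, with 10 of 12 listed. The part of these shifts in the result was not tested, except that with Mir34c left out of both sums, an alternative added after seeing the data, the log2 ratio of the family was 2.34 in place of 2.60. Fewer cells of a type in the lysate and less RNA per cell cannot be told apart. The round spermatids also differ from the lysate in the hetMIWI label, in being sorted cells and in having a table of their own. In this comparison these differences cannot be told apart from cell type.

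The make-up of the family also differed between columns. It counts the b sequence through both of its rows and the c sequence through Mir465c-2 alone. Mir465c-1, with the same hairpin as Mir465c-2, has no row of its own, so the make-up depends on which loci have a row. It also depends on how reads shared between copies were assigned, which is unknown. By FPKM, the 2 b rows together made up 49.6% of the family in round spermatids, 22.1% in the supernatant, 29.4% in the pellet and 25.2% in MVH IP, against 29.0% in lysate. Mir465c-2 made up 21.7% in round spermatids and was the lowest row there. In each other column that listed all 4 rows it was the highest, with 41.3% in the supernatant, 41.2% in the pellet, 48.6% in MVH IP and 39.7% in lysate. Mir465 ranged from 26.2% in MVH IP to 36.6% in the supernatant. The highest row was 1.32 times the lowest in round spermatids, 3.75 times in the supernatant, 2.80 times in the pellet, 3.85 times in MVH IP and 2.74 times in lysate.

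FPKM divides by a length, and the loci are 74, 79 and 81 bases long, so the copies were also set on a read scale. Multiplied by locus length, the round spermatid values made up 27.3% of the family for Mir465, 25.1% for each b row and 22.6% for Mir465c-2, so the order of the copies by FPKM held. A further conversion, added after seeing the data, estimated the FPKM of 1 read from the lowest values above 0 in the ACR IP column. A smooth curve over locus length put 7 of 29 lengths at 1 read and 15 of 29 at a whole number of reads up to 6, within 0.1%. The curve was chosen to make these counts as high as possible, so they are not a test of it. By that curve 1 read stands for an estimated 2163 FPKM at 74 bases, 1759 FPKM at 79 bases and 1627 FPKM at 81 bases, and at 74 bases the data hold 1 gene above 0. The use of the curve for other columns assumes that they scale with length in the same way. On this estimated read scale the round spermatid rows were near equal, at 24.2% of the family for Mir465, 25.7% for each b row and 24.4% for Mir465c-2, a ratio of highest to lowest of 1.06. That ratio was 4.05 in the supernatant, 3.03 in the pellet and 4.16 in MVH IP. In lysate it was 2.96, with 26.1% of the family for Mir465, 14.9% for each b row and 44.1% for Mir465c-2. The part of shared reads, and of the separate making of the round spermatid table, in the near-equal rows was not tested.

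**Figure D3:**
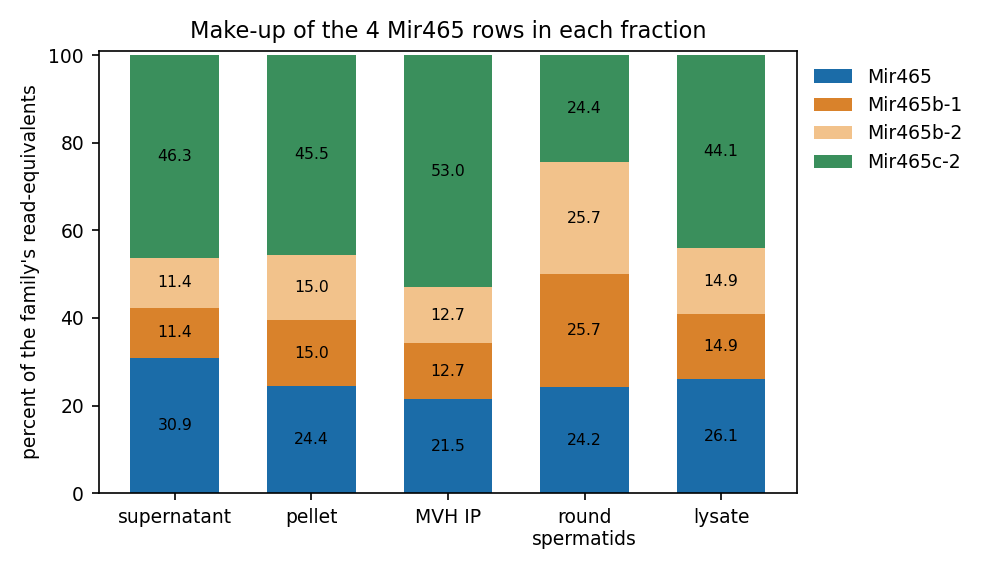
Stacked bars give the percentage of the family's read-equivalents (FPKM divided by the estimated FPKM of 1 read at that locus length) held by each of the 4 rows in the supernatant, pellet, MVH IP, round spermatids and lysate. The 4 segments are near equal in round spermatids, between 24.2% and 25.7%, while Mir465c-2 is the largest segment in the other 4 bars, between 44.1% and 53.0%. The b sequence is counted through both of its rows and the c sequence through Mir465c-2 alone, and how reads shared between copies were assigned is unknown.

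Mir465b-1 and Mir465b-2 held the same value, within 0.1%, in each of the 6 columns that listed them, so they count as 1 measurement and not as replicates. Equal FPKM was uncommon among the other microRNAs listed in numbered copies, but FPKM also depends on locus length. Both b loci are 79 bases long, and the locus lengths of the other names were not compared. In lysate, of 30 names with copies in the supernatant table, Mir465b was the 1 name with identical values. Of the 30 names, 29 were above 0 in all copies. Leaving Mir465b aside, those had a median ratio of highest to lowest copy of 1.59 and a range of 1.01 to 5.45, and the ratio was highest for Mir24 at 5.45, Mir124a at 4.58 and Mir133a at 3.92. The remaining name, Mir669a, has no ratio, with 1 copy at 0 and the other at 1006 FPKM. In the supernatant, the pellet and round spermatids Mir218 also had identical copies, and in MVH IP Mir103 did. For Mir133a the ratio was 3.92 in the supernatant, the pellet and MVH IP, as in lysate. Unequal FPKM alone therefore does not show that copies differ in reads.

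The family was higher in the supernatant than in lysate, but not by the same amount for each copy. Mir465 had 119299 FPKM in the supernatant and 52146 FPKM in lysate, a log2 ratio of 1.19 with a standard error of 0.0698, or 2.29-fold. The ratios are of FPKM plus 1, and the standard errors are those implied by the authors' deposited test statistic. With 1 library each they hold no error between replicates, and the sources used here do not give which errors they cover. Each b row had 35935 FPKM in the supernatant and 24254 FPKM in lysate, a log2 ratio of 0.57 with a standard error of 0.0995. Mir465c-2 had 134611 FPKM in the supernatant and 66382 FPKM in lysate, a log2 ratio of 1.02 with a standard error of 0.0545. All values of the supernatant lay above those of lysate, 1.48-fold for the b rows and 2.03-fold for Mir465c-2.

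The 2 members past 2-fold stood against 7.16% of all 4999 features and 15.5% of the 386 microRNA genes. Among those 386 genes Mir465 ranked 54, Mir465c-2 ranked 60 and the b rows ranked 119 by ratio. The FPKM of all microRNA genes summed to 27461047 in the supernatant and 20176247 in lysate. As shares of that sum, the rows were 1.68-fold higher for Mir465, 1.49-fold for Mir465c-2 and 1.09-fold for the b rows. No member was past 2-fold on that measure. In the authors' deposited table Mir465 and Mir465c-2 had q-values listed as 0 and were called, while the b rows had a q-value of 3.08e-07 and were not called. Of all features 0.96%, and of microRNA genes 10.9%, were called higher in the authors' deposited table. The difference in log2 ratio was 0.63 with a standard error of 0.121 between Mir465 and Mir465b-1, and 0.45 with 0.113 between Mir465c-2 and Mir465b-1. It was 0.17 with 0.0885 between Mir465 and Mir465c-2. These errors treat the rows as independent, which reads shared between copies would break.

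The 15 other chromosome X testis microRNAs had a median log2 ratio of 0.35 in the supernatant over lysate, within a range of -0.78 to 1.49. Of them, 1 was at least 2-fold higher and 0 were at least 2-fold lower, where 12.7% of microRNA genes were. That median was 0.21 over the microRNA genes and 0.02 over all features. Of the 15, 1 exceeded Mir465 and Mir465c-2, and 5 exceeded the b rows.

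**Figure D4:**
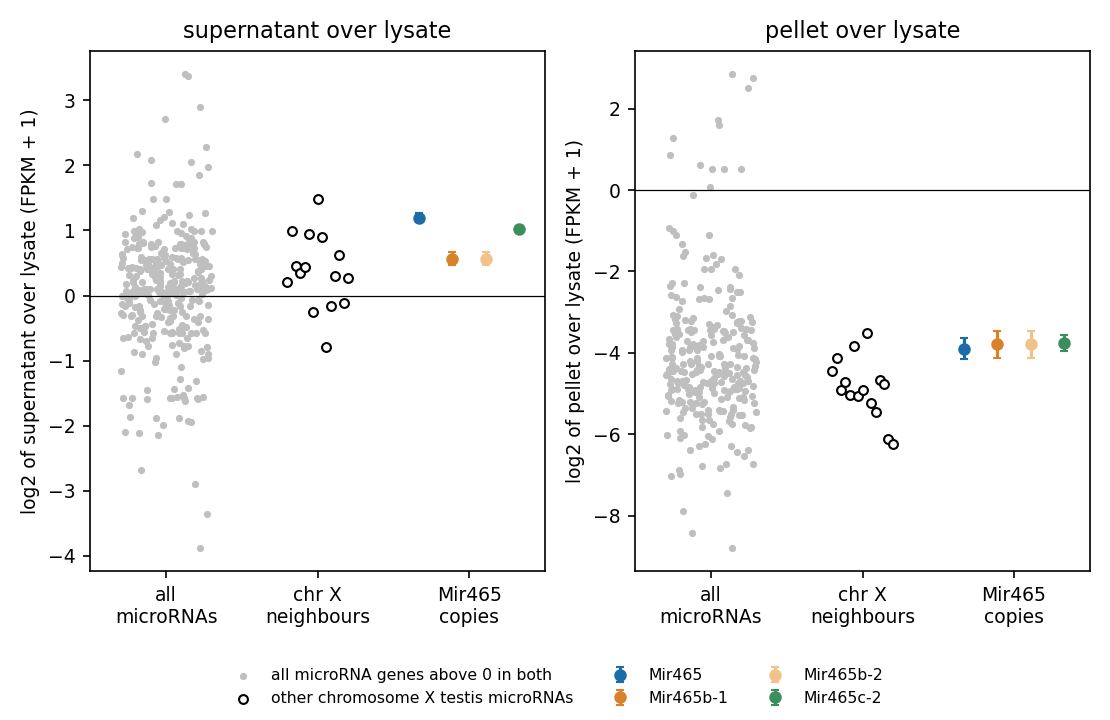
The vertical axes give the log2 ratio of FPKM plus 1 in the supernatant over lysate (left) and in the pellet over lysate (right), for microRNA genes above 0 in both columns (grey), 15 other chromosome X testis microRNAs (open circles) and the 4 Mir465 rows (coloured, with bars of 1 standard error implied by the authors' test statistic). The Mir465 rows lie between 0.57 and 1.19 in the supernatant and between -3.90 and -3.76 in the pellet.

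In the pellet all 4 rows were far below lysate, as most features were. Mir465 had 8373 FPKM in the pellet and 124646 FPKM in lysate on the scale of that table, a log2 ratio of -3.90 with a standard error of 0.260. Each b row had 4187 FPKM in the pellet and 57975 FPKM in lysate, a log2 ratio of -3.79 with a standard error of 0.333. Mir465c-2 had 11741 FPKM in the pellet and 158676 FPKM in lysate, a log2 ratio of -3.76 with a standard error of 0.191. The copies were thus 14.9-fold, 13.8-fold and 13.5-fold lower in the pellet.

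All 4 members were at least 2-fold lower, where 86.5% of all 3005 features and 93.4% of the 363 microRNA genes were. In the authors' deposited table all 4 had q-values listed as 0 and were called lower, against 18.7% of all features and 34.7% of microRNA genes. The median log2 ratio was -2.20 over all features and -4.65 over microRNA genes. Relative to the median of all features, the members stood at -1.70 for Mir465, -1.60 for the b rows and -1.56 for Mir465c-2, which is lower. Relative to the median of microRNA genes they stood at 0.76, 0.86 and 0.90, which is higher. No copy difference in this comparison exceeded its standard error, the largest being -0.14 with a standard error of 0.323 for Mir465 minus Mir465c-2.

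Markers moved in the same comparison. The list of tissues outside the testis, 10 of 12 listed and none at 0, summed to 2.92% of the microRNA FPKM in the pellet against 0.257% in lysate. The blood list, 5 of 6 listed and none at 0, summed to 1.11% in the pellet against 2.33% in lysate, and Mir202 stood at 0.178% in the pellet against 1.10% in lysate. Their part in the result was not tested.

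The 15 other chromosome X testis microRNAs had a median log2 ratio of -4.92 in the pellet over lysate, within a range of -6.23 to -3.50, and all 15 were at least 2-fold lower. Of these, 2 had a higher ratio than Mir465 and 1 had a higher ratio than the b rows and Mir465c-2. As shares of the microRNA FPKM, the family stood at 1.19% in the supernatant against 1.05% in the pellet, a log2 ratio of 0.17. The copies split there, with 0.49 for Mir465, -0.24 for the b rows and 0.18 for Mir465c-2. The 15 genes had a median of 0.52 in this comparison, and all 15 lay above the b rows.

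MVH IP, the precipitate of a chromatoid body protein, held a smaller share of the family than the pellet. In MVH IP, Mir465 had 18044 FPKM and ranked 93 of 214 microRNA genes. Each b row had 8699 FPKM and ranked 123. Mir465c-2 had 33471 FPKM at each of its 2 listed loci and ranked 57. The sum of the 4 names, with Mir465c-2 counted for 1 locus, was 0.658% of the microRNA FPKM in MVH IP against 1.05% in the pellet, a log2 ratio of -0.68. By copy the log2 ratio was -0.84 for Mir465, -0.90 for the b rows and -0.44 for Mir465c-2, so none was past 2-fold, where 14.9% of 181 microRNA genes were in this direction. The other chromosome X testis microRNAs had a median of 0.03 over the 14 listed in both, and 12 of the 14 lay above each Mir465 row.

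Against lysate the family's log2 share ratio in MVH IP was -0.33, with -0.59 for Mir465, -0.53 for the b rows and -0.04 for Mir465c-2. No row was past 2-fold lower, where 29% of 183 microRNA genes were. The 14 neighbours had a median of -0.60. Against round spermatids, the cells that contain the chromatoid body, the family stood at 0.658% in MVH IP against 5.00% in round spermatids, a 7.61-fold lower share. The log2 ratio was -3.06 for Mir465, -3.90 for the b rows and -1.77 for Mir465c-2. All 4 rows were past 2-fold lower, where 22.1% of 163 microRNA genes were, and all 14 neighbours had higher ratios than every Mir465 row. The germ cell list summed to 29.5% in MVH IP against 5.83% in round spermatids, with 3 of 3 genes above 0 in both. The list of microRNAs of tissues outside the testis, 10 of 12 listed and none at 0 in MVH IP, summed to 4.98% in MVH IP, against 0.429% in round spermatids, 2.92% in the pellet and 0.257% in lysate. Within it, Mir205, an epithelial microRNA, held 2.04% in MVH IP, against 0.0459% in round spermatids, 1.11% in the pellet and 0.0189% in lysate. Mir202 stood at 0.177% in MVH IP, against 0.184% in round spermatids, 0.178% in the pellet and 1.10% in lysate. The part of these lists in the MVH IP results was not tested.

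In the control precipitate, Mir465 was listed at 0 in ACR IP against 69653 FPKM in lysate of that table. A value of 0 was usual there, since 221 of 293 microRNA genes, 75.4%, were at 0 in ACR IP. Of the 44 microRNA genes whose lysate value lay within 2-fold of that of Mir465, 24 were at 0. The 1 gene of the same locus length above 0 was Mir191, at 2163 FPKM, the estimated value of 1 read. That estimate used the value of Mir191 itself, so the match is not a test of it. That is 0.405% of the microRNA FPKM in ACR IP, against the 0.216% that Mir465 held in lysate of that table. A share in ACR IP as large as that in lysate would be less than 1 read by this estimate. The 0 can therefore neither show nor exclude a difference in share. Of the 15 other chromosome X testis microRNAs, 6 were also at 0 in ACR IP. The members Mir465b-1, Mir465b-2 and Mir465c-2 have no row in that table.

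The lysate library appears in 3 tables and its Mir465 value was not the same part of the library in each. Between the supernatant and pellet tables the lysate values of 2786 features differed by a near-constant factor, with a median of 0.418 and a range of 0.413 to 0.422, and each family row stood at 0.418. Between the ACR IP and pellet tables the median factor over all features was 0.867, while that of Mir465 was 0.559, or 64.5% of the median. The 15 other chromosome X testis microRNAs had a median factor of 0.870, and the lowest of them was Mir547 at 0.663. MicroRNA genes with a copy number in their name had a median factor of 0.0233 over 42 genes, and the 249 without one had a median of 0.871. Of the first, 38 lay below 3/4 of the all-feature median, and of the second, 11, Mir465 among them.

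**Figure D5:**
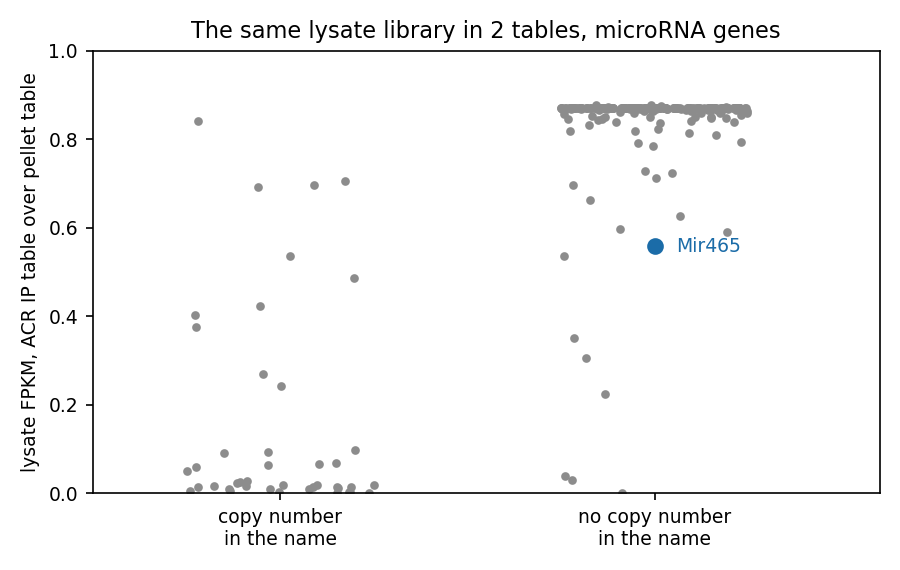
Each point is a microRNA gene, and the vertical axis is its lysate FPKM in the ACR IP table over its lysate FPKM in the pellet table, for 42 genes with a copy number in their name (left) and 249 without one (right). Most points on the right lie at 0.871, Mir465 (blue) lies at 0.559, and the points on the left have a median of 0.0233.

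The microRNA genes whose levels ran most like the summed family over the 8 columns were Mir16-1, Mirlet7f-2, Mir30c-2, Mir16-2 and Mir467d. In 2 of the 8 columns, ACR IP and its lysate, the family sum is Mir465 alone, since the other 3 rows are not in that table. The lysate library supplies 3 of the 8 columns, so these are not 8 separate libraries. In centred log2 of FPKM plus 1, the root mean square difference of the 5 genes from the family was 0.79, 1.02, 1.05, 1.11 and 1.13. The median was 3.02 over 148 microRNA genes listed in every table. These 5 were all at 0 in ACR IP, where the family is also at 0, and 4 of the 5 carry a copy number in their name. Over the 6 columns without the ACR IP table, an alternative added after seeing the data, the nearest genes were Mir92-2 at 0.46, Mir871 at 0.49, Mir194-2 at 0.49, Mir676 at 0.53 and Mir328 at 0.54, none of them shared with the first 5. Mir871 is also the second nearest neighbour of the family by position.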

How the data were processed

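The authors' 5 tables were used as deposited. TopHat, Cuffdiff and the mm9 build are named per the submitters' processing notes; their versions and roles, the annotation and the rule for multiply matching reads are not given in the sources used here. Values are FPKM, a unit that the round spermatid table names per the file headers and that was read from column names and values elsewhere. The deposited p-values, q-values, test statistics (a score) and yes or no calls of the supernatant and pellet tables are the authors'. Of the per-sample columns, 1, with long RNA values, was not used.

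Log2 ratios are of FPKM plus 1, with a 2-fold threshold, for features reaching 1 FPKM in at least 1 of the columns compared. Across tables, shares of the summed microRNA FPKM were set side by side. The exceptions are the lysate values between tables and the search for the most alike genes, which used centred log2 of FPKM plus 1. The standard error is the log2 ratio divided by the deposited test statistic. With 1 library per group no test was made and p-values were not computed. Alternatives changed the pseudocount, floor, fold, centring, denominator and lysate column; ratios were checked on simulated data. Named genes were the members, the nearest chromosome X microRNAs of the list (3 on the lower side, and on the upper side the 2 it holds), the 3 names with most different copies and the 5 genes most like the family; Mir184, Mir191, Mir103, Mir205, Mir218 and Mir669a were named after their values were seen. Members and lists were chosen with earlier results of these data known. Sequences are RefSeq's (GRCm38.p6), matched by symbol. Mm9 starts are given from 1. Python 3.11.15, numpy 2.4.6, pandas 2.3.3, Biopython 1.88 and matplotlib 3.10.9 were used.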

Additional observations from a re-analysis of the deposited data

How the results depend on the processing

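No paired analysis was possible because each group has 1 library or 1 column of values, so no replicate could be left out either. Pseudocounts of 0.1 and 10 and a 1.5-fold threshold left the directions of the supernatant and pellet ratios as given. Centring on the microRNA median gave 0.99 for Mir465, 0.36 for the b rows and 0.81 for Mir465c-2 in the supernatant, so no member stayed past 2-fold. It turned the pellet ratios to 0.76, 0.86 and 0.90. Centring on the median of all features gave -1.70, -1.60 and -1.56 in the pellet. Against all features as denominator the family's share was 0.980% in the pellet and 4.63% in round spermatids. Mir465 held 0.216% of the microRNA FPKM in the lysate column of the ACR IP table, against 0.258% in that of the supernatant table. Without Mir34c in the denominator the family's log2 ratio in round spermatids over lysate was 2.34. By Pearson correlation 3 of the 5 most alike genes were shared, and 0 were without the ACR IP table. The cause of these shifts was not tested, beyond what the centring itself sets. A ratio of ACR IP to lysate is not reported for Mir465 under any setting, since it is listed at 0. Read totals are unknown, and 1 read of ACR IP stands for an estimated 2163 FPKM at 74 bases.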
